A study of Homo sapiens with 8 samples.

Results

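The zinc finger genes of distal 19q are the genes named ZNF and a number that the deposited table places on chromosome 19 with a start at or beyond base 50000000 (hg38). Of 100 such genes, 85 reached 0 or more in their deposited log2 value averaged across all 8 libraries and are called members here, among 14665 genes tested and 35805 listed. The rule uses position, name and mean level, and no difference between groups, but it was proposed with earlier results of these data known. Of the 85 members, 84 are protein coding and ZNF321P is annotated as a pseudogene in GENCODE 29. The name was checked against sequence: every one of the 84 coding members held 3 to 26 copies of the C2H2 zinc finger pattern in its annotated protein with the most copies (median 12). The last member above the threshold was ZNF415, at a mean of 0.12, and the first gene below it was ZNF677, at -0.14 with 48 reads over all libraries. The 15 genes below it, which include the tumour-methylated genes ZNF154, ZNF256 and ZNF132, had 0 to 48 reads each, and ZNF667, ZNF471, ZNF154 and ZNF135 had none. They enter no comparison.

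RNA was sequenced from K562, an erythroleukaemia line, in cells that carried dCas9-KRAB, a Cas9 that cannot cut, joined to a KRAB repressor domain. There were 4 groups of 2 libraries: untransduced cells, cells with the control guide sgAAVS1, which targets a site inside PPP1R12C, and the sg1-IRF2 and sg2-IRF2 cells, whose guides target the gene of the transcription factor IRF2. Cells with guides were taken 7 days after transduction. All 4 groups, the controls included, carried dCas9-KRAB, and the labels do not say whether it was 1 clone or whether 2 libraries of a group stem from different cultures, so a p-value here reflects library spread alone. The series asks what loss of IRF2 does to the transcriptome.

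Library totals over the listed genes were 5248359 to 6738348 reads. IRF2 had 271 and 268 reads in the untransduced pair, 196 and 291 in the sgAAVS1 pair, 4 and 8 in the sg1-IRF2 pair and 22 and 21 in the sg2-IRF2 pair. Erythroid markers had reads for 8 of 8 genes (6177 to 7323 reads a library), against 42 to 62 for lymphoid, 292 to 388 for myeloid and 462 to 619 for adherent-line markers, each with 3 of 4 genes detected. The 2 libraries of a group were compared before use. Mean chi-square per gene between the 2 libraries of a group, where counting noise gives 1, was 0.820 for the untransduced pair, 0.780 for the sg1-IRF2 pair and 0.658 for the sg2-IRF2 pair, so these 3 pairs agreed within sampling noise and each may be 1 library deposited again. The sgAAVS1 pair stood at 1.66, above the 1.11 between the first sgAAVS1 and the first sg1-IRF2 library and the 1.22 between the second ones. Counts are therefore given with both libraries of each group and with those 3 pairs each averaged and counted as 1 sample. The averaged fit has 5 samples and 1 residual degree of freedom, which comes from the sgAAVS1 pair, so it assumes that the 3 lone samples vary as that pair does, and limma gave every gene the spread usual at its level. Its calls are given on that assumption and are no separate check. The shares of all tested genes called that are printed below belong to fits with both libraries of each group, not to the averaged fit. In the averaged fit a smaller share of all tested genes was called in every comparison, so its counts cannot be set against those shares.

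C2H2 zinc finger proteins bind DNA through arrays of small zinc-holding loops, each of which reads a few bases. Many carry a KRAB domain at the front, which recruits the corepressor TRIM28 and through it the histone methyltransferase SETDB1, and silences transposable elements and other targets. KRAB zinc finger genes arose by repeated tandem duplication, and chromosome 19 holds their densest clusters, so that neighbours often share sequence. dCas9-KRAB borrows the same repressor domain.

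**Figure D1:**
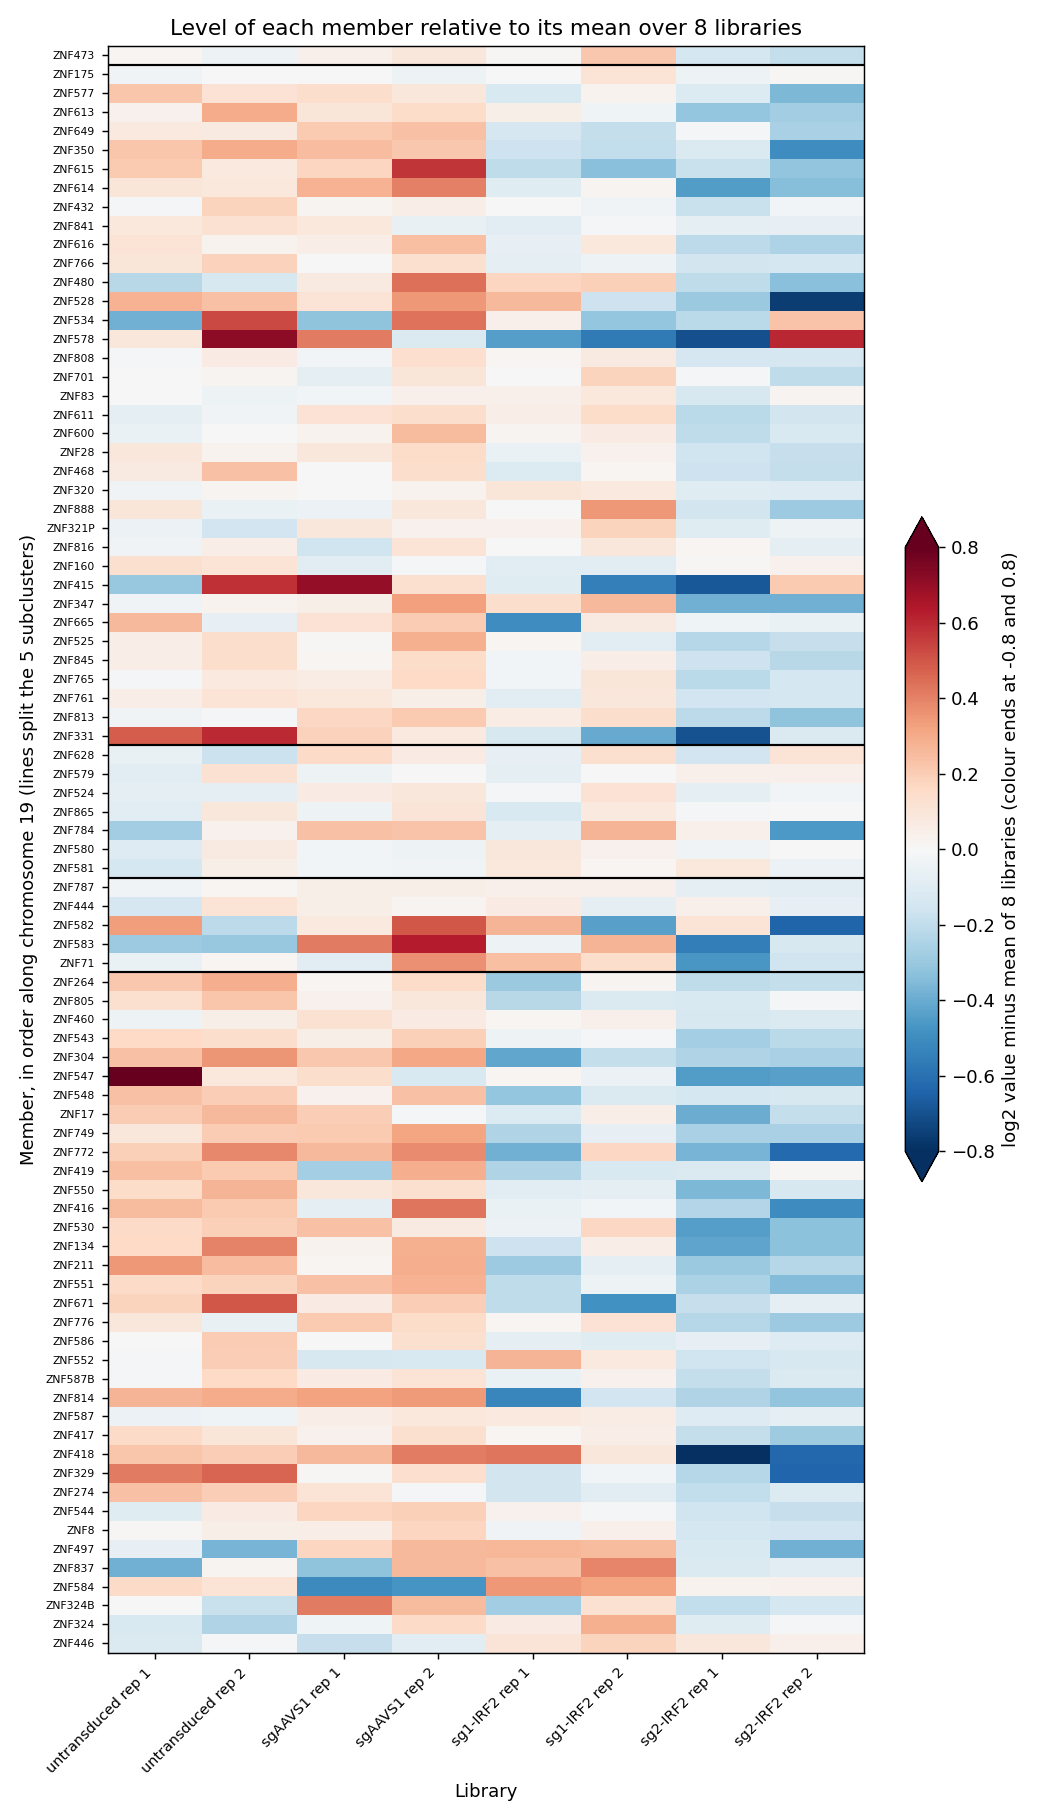
Deposited log2 value of each of the 85 members minus its own mean over the 8 libraries; members run down the axis in chromosome order and libraries run across, and the colour scale ends at -0.8 and 0.8. The 4 IRF2-guide libraries on the right are mostly blue (low) in the block of subcluster 5 at the bottom, and ZNF584 is the row that is low in both sgAAVS1 libraries.

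The sequence around RefSeq starts was read for 73 of the 85 members from RefSeq (GRCh38.p14), as 90 windows that run from 250 bases before to 50 bases after a start. Letter strings were searched on both strands. The core of the element that interferon regulatory factors bind (GAAA, any 2 bases, GAAA) was in 2 of the 90 windows (2.22%; ZNF160 and ZNF583), against 2.89% of the windows of all tested genes and 3.57% of all windows. CCGGAAG, which ETS factors bind, was in 49 windows (54.4%, against 17.1% and 10.3%). The windows were also searched for the word of 14 bases that the most members share. It was AACTACATTACCCA, in 10 members (11.1% of windows, against 0.0791% and 0.037%), the first in the alphabet of 4 words, both strands counted, that 10 members hold. With up to 1 mismatch it was in 17 windows (18.9%, against 0.46% and 0.245%). The word was picked as common in these windows, so an excess over other windows follows from that choice. The 11 windows of tested genes with the exact word include the 10 of members. Expression values played no part in finding the word, but its length and the mismatch were set with them known. Of the 17 members 16 lie in the last subcluster described below (ZNF460, ZNF304, ZNF17, ZNF749, ZNF772, ZNF419, ZNF416, ZNF530, ZNF551, ZNF776, ZNF586, ZNF587B, ZNF587, ZNF814, ZNF418 and ZNF584) and the other is ZNF444. Of 18 copies 16 ran with the gene, all copies began 53 to 233 bases before its start, and none overlapped another string searched. ZNF614, ZNF350 and ZNF134, also lower against both controls, have windows without a copy, which are not shown. The windows of 5 members that were lower against both controls and hold a copy are shown with the word in capitals, followed by those of ZNF460, the member with the highest level per kilobase, and ZNF584, the member that was higher against sgAAVS1. Each is the 250 bases before the RefSeq start, 5′ to 3′ on the gene's strand, on chr19.
ZNF304, chr19:57351021-57351270, plus strand: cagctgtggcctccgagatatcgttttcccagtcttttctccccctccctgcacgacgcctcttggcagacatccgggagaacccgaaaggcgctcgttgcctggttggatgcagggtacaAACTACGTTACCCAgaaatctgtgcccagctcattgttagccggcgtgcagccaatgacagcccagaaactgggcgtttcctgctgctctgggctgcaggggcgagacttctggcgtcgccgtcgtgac
ZNF551, chr19:57681727-57681976, plus strand: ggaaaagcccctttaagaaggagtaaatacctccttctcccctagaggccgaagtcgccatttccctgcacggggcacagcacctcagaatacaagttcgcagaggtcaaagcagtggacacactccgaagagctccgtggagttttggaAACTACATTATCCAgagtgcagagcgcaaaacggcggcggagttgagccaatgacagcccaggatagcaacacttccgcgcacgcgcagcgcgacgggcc
ZNF749, chr19:57435075-57435324, plus strand: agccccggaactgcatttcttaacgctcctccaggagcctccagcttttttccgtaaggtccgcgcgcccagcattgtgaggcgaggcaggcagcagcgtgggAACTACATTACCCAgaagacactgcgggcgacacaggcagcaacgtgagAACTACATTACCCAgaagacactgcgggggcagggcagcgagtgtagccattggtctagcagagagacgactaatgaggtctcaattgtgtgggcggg
ZNF772, chr19:57477567-57477816, minus strand: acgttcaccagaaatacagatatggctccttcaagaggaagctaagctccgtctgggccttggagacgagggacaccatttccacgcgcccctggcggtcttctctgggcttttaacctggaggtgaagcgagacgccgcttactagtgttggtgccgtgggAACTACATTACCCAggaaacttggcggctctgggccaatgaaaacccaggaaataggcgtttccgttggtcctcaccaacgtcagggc
ZNF814, chr19:57889038-57889287, minus strand: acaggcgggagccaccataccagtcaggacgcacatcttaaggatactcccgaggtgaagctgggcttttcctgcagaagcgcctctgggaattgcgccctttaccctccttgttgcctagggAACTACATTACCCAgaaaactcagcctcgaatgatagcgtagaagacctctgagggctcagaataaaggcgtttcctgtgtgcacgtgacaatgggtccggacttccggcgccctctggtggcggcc
ZNF460, chr19:57279732-57279981, plus strand: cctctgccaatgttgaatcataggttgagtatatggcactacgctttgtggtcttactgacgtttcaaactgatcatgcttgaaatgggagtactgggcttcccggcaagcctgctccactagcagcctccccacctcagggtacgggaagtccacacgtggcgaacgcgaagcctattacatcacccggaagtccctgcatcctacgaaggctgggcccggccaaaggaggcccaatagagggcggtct
ZNF584, chr19:58408399-58408648, plus strand: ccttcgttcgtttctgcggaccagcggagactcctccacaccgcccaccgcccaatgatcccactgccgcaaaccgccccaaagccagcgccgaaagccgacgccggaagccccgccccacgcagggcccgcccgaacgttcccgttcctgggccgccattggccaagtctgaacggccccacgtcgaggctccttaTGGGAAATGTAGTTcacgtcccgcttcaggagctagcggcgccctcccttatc
ZNF304 carries 1 copy 129 bases before its start, with 1 mismatch, and ZNF551 1 at 100 bases, with 1 mismatch. The exact word stands at 147 and 98 bases in ZNF749, at 88 in ZNF772 and at 127 in ZNF814. In ZNF584 a copy with 1 mismatch runs against the gene, 53 bases before the RefSeq start. That start lies 7145 bases inside ZNF584 as the deposited table places it, while those of the other 6 windows shown lie within 69 bases of the deposited edge. The window shown for ZNF460 holds none, and the copy counted for it lies in its other RefSeq window. A match is a description of these letters and not a bound site.

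With starts at most 300 kb apart counted as neighbours, the members fell into 5 subclusters along chromosome 19. Subcluster 1 is ZNF473 alone (50025714 to 50053414, plus strand), whose protein takes part in the processing of histone pre-mRNA. Subcluster 2 runs from ZNF175 to ZNF331 (51571298 to 53580269) with 36 members, 35 of them with a KRAB pattern. Subcluster 3 runs from ZNF628 to ZNF581 (55476332 to 55645622) with 7 members, none with a KRAB pattern. Subcluster 4 holds 5 members from ZNF787 to ZNF71 (56087366 to 56626481), 3 with KRAB, and subcluster 5 holds 36 from ZNF264 to ZNF446 (57191500 to 58481230), 31 with KRAB. Proteins of subcluster 2 had a median of 14 finger patterns, those of subcluster 5 had 11 and those of subcluster 3 had 6. A gap of 500 kb joins subclusters 3 and 4.

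Levels per length ranged widely. In RPKM (reads per kilobase of exon, scaled to each library's total over the listed genes), averaged over the 8 libraries, subcluster 2 ran from 0.216 (ZNF578) to 21.7 (ZNF841) with a median of 7.42, and subcluster 5 from 0.678 (ZNF418) to 37.5 (ZNF460) with a median of 6.34. Subcluster 3 ran from 4.06 (ZNF784) to 24.8 (ZNF581) with the highest median, 14.6. Subcluster 4 held ZNF787 at 20.1 and ZNF582 at 0.682, with a median of 1.21. ZNF473 had 12.8, and ZNF175 had 18.9. ZNF331, an imprinted gene rearranged in thyroid adenomas, had 0.478.

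Against sgAAVS1, 19 of the 85 members fell and 1 rose with both IRF2 guides as 1 group (limma, adjusted p under 0.05, where 1.59% of all tested genes were called, 1.1% lower and 0.491% higher). ZNF614, ZNF551 and ZNF304 fell by 0.47 to 0.56 on the log2 scale and ZNF584 rose by 0.67. The median member lay at -0.20, against -0.02 over all tested genes, and 75 of 85 members lay below 0. The members took 0.375% and 0.376% of the reads in the untransduced pair, 0.362% and 0.386% in the sgAAVS1 pair, 0.341% and 0.352% in the sg1-IRF2 pair and 0.336% in both sg2-IRF2 libraries, so both guides lay below both controls. In bulk RNA, less RNA per cell and fewer cells of a kind cannot be told apart. With the 3 close pairs averaged, 6 members fell and 1 rose: ZNF614, ZNF304, ZNF749, ZNF772, ZNF551 and ZNF814, with limma adjusted p from 4.6e-06 (ZNF614) to 0.023 (ZNF814), and ZNF584 (2.1e-07).

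ZNF614 (subcluster 2, 52012765 to 52030240, minus strand) read 5.83 and 5.82 in the untransduced pair, 6.02 and 6.14 in the sgAAVS1 pair, 5.64 and 5.76 in the sg1-IRF2 pair and 5.29 and 5.40 in the sg2-IRF2 pair, on the deposited log2 scale. All 4 guide libraries were below all 4 controls, and those of sg2-IRF2 were lowest. Its difference from sgAAVS1 was -0.56 ± 0.07 (SE; limma, adjusted p = 2.3e-06), which is 32.1% lower. ZNF304, a KRAB repressor known for silencing the INK4-ARF locus, read 5.29 and 5.42, 5.28 and 5.37, 4.65 and 4.87, and 4.82 and 4.80 in the same order. Its groups did not overlap, the controls lay together and so did the guides, and the difference was -0.54 ± 0.08 (limma, adjusted p = 2.1e-04).

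ZNF551 read 6.09 and 6.12, 6.18 and 6.22, 5.74 and 5.90, and 5.69 and 5.59 in the 4 groups (-0.47 ± 0.06 against sgAAVS1; limma, adjusted p = 1.9e-05). ZNF749 read 5.08 and 5.20, 5.20 and 5.31, 4.75 and 4.93, and 4.73 and 4.73 (-0.47 ± 0.08; limma, adjusted p = 0.0014). In both, every guide library was below every control. ZNF772 read 4.49 and 4.68, 4.55 and 4.67, 3.91 and 4.46, and 3.92 and 3.68 (-0.62 ± 0.13; limma, adjusted p = 0.0062). ZNF814 read 4.02 and 4.05, 4.07 and 4.09, 3.23 and 3.60, and 3.51 and 3.43 (-0.64 ± 0.13; limma, adjusted p = 0.0068). The second sg1-IRF2 library of ZNF772 came within a step of the controls, while ZNF814 was clear of them. ZNF814 and ZNF587 share 2445 exonic bases on opposite strands, 19.4% of the exons of ZNF814, and the strand setting of the counting is not given in the sources used here.

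**Figure D2:**
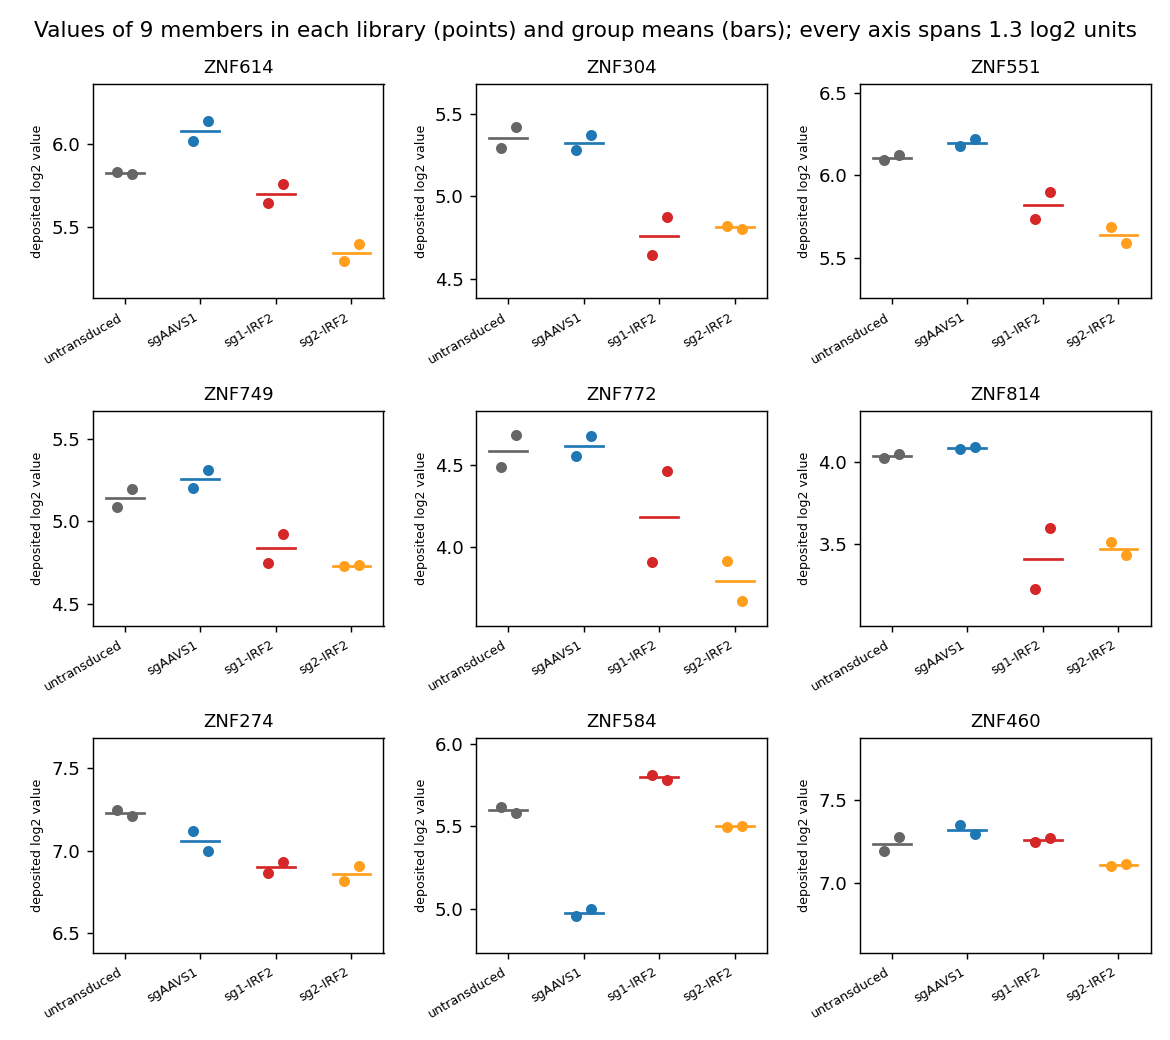
Deposited log2 value of 9 members in each of the 8 libraries (points, by group) with the group mean as a bar; every vertical axis spans 1.3 log2 units. ZNF614, ZNF304, ZNF551, ZNF749, ZNF772, ZNF814 and ZNF274 have all 4 IRF2-guide libraries below all 4 controls, ZNF584 is low with sgAAVS1 only, and ZNF460 moves little.

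Of the other members that fell against sgAAVS1, ZNF649, ZNF350, ZNF615, ZNF813, ZNF616, ZNF28 and ZNF480 lie in subcluster 2, and ZNF544, ZNF134, ZNF324B, ZNF776, ZNF8 and ZNF211 in subcluster 5. Their differences ran from -0.63 (ZNF615) to -0.18 (ZNF8) and their limma adjusted p from 0.011 (ZNF544) to 0.040 (ZNF350, ZNF480 and ZNF211). ZNF350, a partner of BRCA1, read 4.24 and 4.32 in the untransduced pair, 4.27 and 4.24 in the sgAAVS1 pair, 3.85 and 3.83 in the sg1-IRF2 pair and 3.90 and 3.53 in the sg2-IRF2 pair. Both controls lay above both guides. ZNF649 read 5.27 and 5.27, 5.40 and 5.43, 5.06 and 5.0, and 5.19 and 4.93, also with no overlap. ZNF8, a partner of Smad proteins, read 7.27 and 7.31, 7.31 and 7.43, 7.23 and 7.30, and 7.12 and 7.11, and its sg1-IRF2 and untransduced libraries overlapped. ZNF415 had a larger difference than any of these, -0.69 ± 0.50, at few reads and was not called (limma, adjusted p = 0.69), nor was ZNF583 (-0.63 ± 0.19; limma, adjusted p = 0.12).

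By position, 11 of 36 members fell and 1 rose in subcluster 5 (median -0.25) and 8 of 36 fell in subcluster 2 (median -0.19). With pairs averaged, 5 fell and 1 rose in subcluster 5 and 1 fell in subcluster 2. No member of subcluster 3 was called by limma (median -0.05; 0 at unadjusted p under 0.05, 0 with voom on the recovered reads), and none of subcluster 4 (median -0.20; 1 at unadjusted p under 0.05, 0 with voom). ZNF473, alone in subcluster 1, was not called (-0.09 ± 0.06; limma, adjusted p = 0.59). With sg2-IRF2 alone against sgAAVS1, ZNF473 (-0.23) and ZNF583 of subcluster 4 (-0.86) were called lower, as were 7.11% of all tested genes. The 32 other tested genes that lie between the members of subcluster 5 had a median of -0.16 and the 9 in subcluster 2 one of -0.10, and limma called none of either set (7 of the 32 and 2 of the 9 at unadjusted p under 0.05, 0 with voom).

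The members were also divided by the KRAB pattern. Of 69 members with it, 18 fell and 1 rose (median -0.25), and of 16 without it 1 fell (median -0.06). The pattern was loosened after a first version missed ZNF304, ZNF772 and ZNF671. The first version gave 16 lower and 1 higher of 66 (median -0.24), and 3 lower of 19 without it (median -0.08). With pairs averaged, 6 fell and 1 rose of the 69 and none of the 16 was called (1 of them in the fit of all libraries and 1 with voom; first version 4 lower and 1 higher of 66, and 2 lower of 19). Among KRAB zinc finger genes elsewhere, with both guides against sgAAVS1, of 87 others on chromosome 19 limma called 2, both higher (median -0.08; 20 at unadjusted p under 0.05, 2 with voom), and of 91 on other chromosomes 2 fell (median -0.06). With sg2-IRF2 alone against sgAAVS1, where 7.11% of all tested genes were called lower, such genes fell too: 18 of the 87 (20.7%, median -0.16; 2 rose) and 16 of the 91 (17.6%, median -0.14), beside 40 of the 69 members with the pattern (58%, median -0.31). Of 143 other genes of distal 19q, limma called 1, which was higher (median -0.02; 17 at unadjusted p under 0.05, 1 with voom). Against untransduced cells 18 of the 69 members with the pattern fell (median -0.22; first version 16 of 66, median -0.19), and 2 of the 16 without it (median 0.05). With pairs averaged that order turned: 1 of the 69 (ZNF304) and 2 of the 16 (ZNF329 and ZNF134) were called lower, and 0 of 66 and 3 of 19 by the first version. No test was made between these sets, and 7 of the 16 members without the pattern make up subcluster 3, so the domain and the place on the chromosome cannot be told apart for them.

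**Figure D3:**
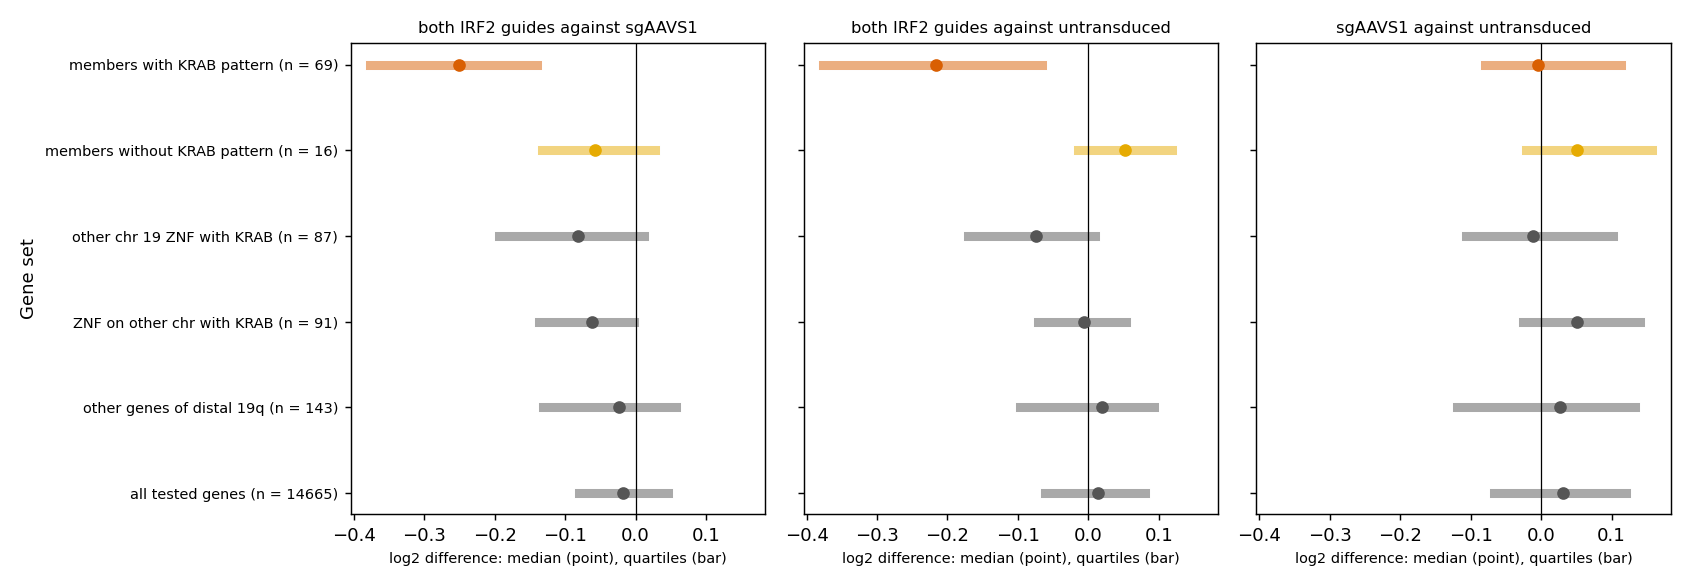
Median (point) and quartiles (bar) of the log2 difference over 6 gene sets in 3 comparisons; the number of genes is beside each set. The 69 members with a KRAB pattern have medians of -0.25 and -0.22 with the IRF2 guides against the 2 controls, and one close to 0 between the controls.

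The count depended on single libraries and on the settings of the test. The share of all tested genes called changed with them as well, not always in the direction of the count. Leaving out the second sgAAVS1 library lowered the count and raised that share. Leaving out either untransduced library, the first sg1-IRF2 library or either sg2-IRF2 library lowered both. The median member difference ran from -0.24 without the first sgAAVS1 library to -0.15 without the second. Without a mean-variance trend in limma 2 members, ZNF584 and ZNF614, were called (0.409% of all tested genes), and with library medians aligned 11 (1.42%).

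Against untransduced cells, 20 members fell and none rose with the IRF2 guides (limma; 2.5% of all tested genes called, 1.51% lower and 0.982% higher; 1 member, ZNF324, was higher at unadjusted p under 0.05, and 0 rose with voom). The median member lay at -0.15, against 0.01 over all genes, and 67 lay below 0. This comparison uses the same 4 guide libraries as that with sgAAVS1, so the 2 are not separate evidence. With pairs averaged, where the untransduced group and each guide are lone samples and the spread is that of the sgAAVS1 pair, outside this comparison, 3 were called lower: ZNF304 (limma, adjusted p = 0.017), ZNF329 (0.033) and ZNF134 (0.039). Leaving out the first or second untransduced library, the first sg1-IRF2 library or the first sg2-IRF2 library lowered the count and the share of all tested genes called. The median member difference was then -0.18, -0.13, -0.14 and -0.15. Without a mean-variance trend 0 members were called (0.368% of all tested genes).

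Subcluster 5 held 15 of the 20 (median -0.34) and subcluster 2 the other 5, ZNF614, ZNF766, ZNF350, ZNF468 and ZNF331 (median -0.15). Limma called no member of subclusters 3 or 4 (medians 0.07 and -0.01; 0 in each at unadjusted p under 0.05, 0 with voom). Of the 32 other genes inside subcluster 5 it called none (median -0.14; 9 at unadjusted p under 0.05, 0 with voom). Within subcluster 5 the members from ZNF544 to ZNF446, at its telomeric end, lay between -0.10 (ZNF8) and 0.29 (ZNF837). That stretch was singled out after its values were seen. Against sgAAVS1, ZNF544 (-0.26), ZNF8 (-0.18) and ZNF324B (-0.46) of the stretch fell and ZNF584 (0.67) rose. None of these was called against untransduced cells.

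ZNF274, which binds the 3′ ends of zinc finger genes and recruits SETDB1 there, read 7.25 and 7.21 in the untransduced pair, 7.12 and 7.0 in the sgAAVS1 pair, 6.87 and 6.93 in the sg1-IRF2 pair and 6.82 and 6.91 in the sg2-IRF2 pair. The sgAAVS1 libraries lay between the untransduced and the guide libraries. The difference was -0.35 ± 0.05 against untransduced cells (limma, adjusted p = 4.3e-05) and -0.18 ± 0.05 against sgAAVS1, which was not called (adjusted p = 0.063). ZNF329 read 4.64 and 4.69, 4.24 and 4.36, 4.08 and 4.21, and 4.0 and 3.59, with the same order of groups (-0.70 ± 0.12 against untransduced; limma, adjusted p = 5.7e-04). ZNF331 read 2.71 and 2.82, 2.41 and 2.30, 2.10 and 1.83, and 1.53 and 2.11, from 17 to 39 reads a library (-0.88 ± 0.23; limma, adjusted p = 0.037).

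Further members that fell against untransduced cells were ZNF304 (-0.57 ± 0.08; limma, adjusted p = 9.3e-05), ZNF551 (-0.38), ZNF134 (-0.49), ZNF264 (-0.42), ZNF211 (-0.52), ZNF548 (-0.39), ZNF772 (-0.59), ZNF550 (-0.37), ZNF814 (-0.59), ZNF749 (-0.36), ZNF17 (-0.39), ZNF805 (-0.29) and ZNF543 (-0.28), all of subcluster 5. ZNF264 read 6.10 and 6.17 in the untransduced pair, 5.89 and 6.03 in the sgAAVS1 pair, 5.58 and 5.90 in the sg1-IRF2 pair and 5.67 and 5.69 in the sg2-IRF2 pair, and 1 sg1-IRF2 library overlapped sgAAVS1. ZNF211 read 5.12 and 5.02, 4.79 and 5.07, 4.49 and 4.70, and 4.48 and 4.55, with every guide library below every control. ZNF671, a gene often methylated in tumours, read 3.33 and 3.65, 3.22 and 3.35, 2.95 and 2.66, and 2.97 and 3.08, also with no overlap, and was not called (-0.57 ± 0.16; limma, adjusted p = 0.059).

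By library, the 4 guide libraries lay below both sgAAVS1 libraries in 34 of 85 members (against 5.92% of all tested genes), and below both untransduced libraries in 33 (38.8%, against 8.88%). They lay below all 4 controls in 21 members (24.7%, against 1.79%): ZNF577, ZNF649, ZNF350, ZNF615, ZNF614, ZNF766, ZNF331, ZNF805, ZNF543, ZNF304, ZNF548, ZNF749, ZNF772, ZNF550, ZNF211, ZNF551, ZNF671, ZNF586, ZNF814, ZNF329 and ZNF274. Only ZNF446 lay above all 4 controls in all 4 guide libraries (0.948% of tested genes did), at 4.37 and 4.47, 4.30 and 4.40, 4.59 and 4.66, and 4.57 and 4.53, and it was called in neither comparison (limma, adjusted p = 0.34 and 0.47). It shares 26.1% of its 50-base words with ZNF324.

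**Figure D4:**
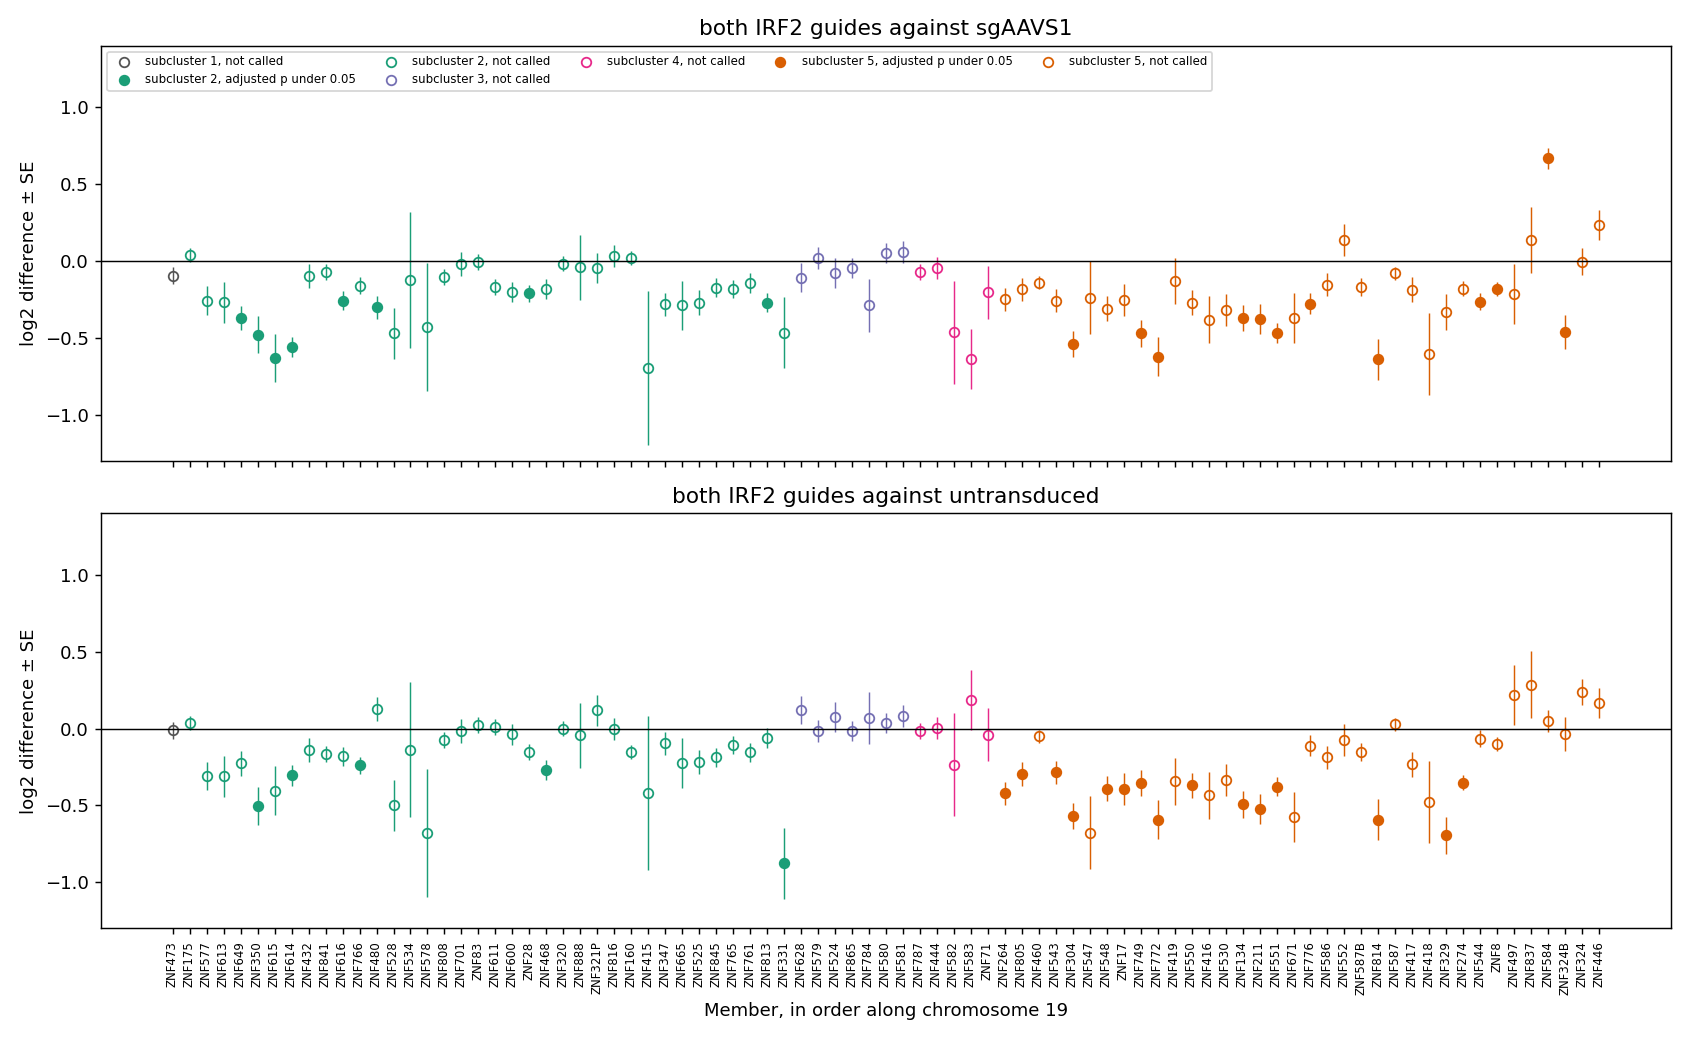
Log2 difference with its SE for each member in chromosome order, with both IRF2 guides against sgAAVS1 (top) and against untransduced cells (bottom); filled points have an adjusted p under 0.05 and colours mark the 5 subclusters. Filled points below 0 lie in subclusters 2 and 5, 19 of them in the top panel and 20 in the bottom panel, and ZNF584 is the filled point above 0 in the top panel.

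In subcluster 5, members with the shared promoter word had the lower median in some comparisons and the higher one with sg1-IRF2 against sgAAVS1. There, the 16 members with a copy had a median difference of -0.30 against sgAAVS1 and the 17 with a window but no copy one of -0.25. The medians were -0.35 and -0.29 against untransduced cells, -0.13 and -0.16 with sg1-IRF2 against sgAAVS1, and -0.48 and -0.28 with sg2-IRF2 against sgAAVS1. With a copy 6 of 16 fell and 1 rose against sgAAVS1, and without one 4 of 17 fell. Against untransduced cells 6 of 16 and 8 of 17 fell. With sg1-IRF2 against sgAAVS1 4 of 16 fell and 1 rose with a copy, and limma called 0 of 17 without one (9 at unadjusted p under 0.05, against 6 of the 16; 0 with voom). With sg2-IRF2 12 of 16 fell and 1 rose with a copy and 9 of 17 fell without one. No test was made between the members with and without it.

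Taken singly against sgAAVS1, sg1-IRF2 gave 6 members lower and 1 higher (limma; 0.825% of all tested genes called, 0.498% lower and 0.327% higher; median -0.11 against 0.04 over all genes), and sg2-IRF2 gave 43 lower and 1 higher (8.16% called, 7.11% lower and 1.05% higher; median -0.28 against -0.07). With sg1-IRF2 the members that fell were ZNF304 (-0.56 ± 0.10; limma, adjusted p = 9.6e-04), ZNF551 (-0.38), ZNF614 (-0.38), ZNF814 (-0.67), ZNF749 (-0.42) and ZNF649 (-0.38). All 6 also fell with sg2-IRF2, with ZNF614 at -0.74 ± 0.08 (limma, adjusted p = 2.2e-07) and ZNF551 at -0.56 ± 0.07 (1.2e-05). ZNF347, ZNF813, ZNF480, ZNF776 and ZNF772 fell next most clearly with sg2-IRF2, by 0.57, 0.45, 0.53, 0.44 and 0.82 on the log2 scale. With pairs averaged, when each guide is 1 sample assumed to vary as the sgAAVS1 pair does, 1 was called lower (ZNF304) and 1 higher (ZNF584) with sg1-IRF2, and 10 lower and 1 higher with sg2-IRF2. With library medians aligned, sg2-IRF2 gave 16 lower and 1 higher (3.41% of all tested genes called) and sg1-IRF2 7 lower and 1 higher (0.791%).

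ZNF418 had the largest difference among the members with sg2-IRF2, at 18 and 26 reads with sgAAVS1 against 10 and 12 (-1.13 ± 0.31; limma, adjusted p = 0.021). It read 1.96 and 1.93, 2.0 and 2.14, 2.16 and 1.83, and 0.77 and 1.11 in the 4 groups, so that only sg2-IRF2 was low. ZNF460, the member with the highest level per kilobase, read 7.19 and 7.27, 7.35 and 7.29, 7.25 and 7.27, and 7.10 and 7.11. It fell with sg2-IRF2 (-0.21 ± 0.05; limma, adjusted p = 0.010) and was not called with both guides (-0.14 ± 0.04; adjusted p = 0.15). With either guide alone, leaving out the second sgAAVS1 library lowered the count of members called and raised the share of all tested genes called. The median member difference was then -0.23 with sg2-IRF2 and -0.07 with sg1-IRF2. Count and share both fell with sg2-IRF2 without its first or second own library (medians -0.26 and -0.27). Both also fell with sg1-IRF2 without its own first library (median -0.06) or either untransduced library.

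Set directly against each other, the guides differed in 16 members, all higher with sg1-IRF2 (limma; 13.3% of all tested genes called, 12.7% higher and 0.634% lower). The median member lay at 0.16, and the median of all tested genes at 0.11, so most of that difference was shared by the whole table. ZNF347 stood above the shift, at 5.76 and 5.88 with sg1-IRF2 against 5.23 and 5.23 with sg2-IRF2 (0.59 ± 0.09; limma, adjusted p = 1.4e-04), and ZNF480 read 6.05 and 6.07 against 5.67 and 5.54 (0.45 ± 0.09; adjusted p = 0.0026). Neither pair of groups overlapped. With library medians aligned, 1 member was higher and 1 lower, and 1.58% of all tested genes were called. When 1 library was left out in turn, the share of all tested genes called moved with the count of members. Without 1 library in turn the count ran from 1 (without the second sg1-IRF2 library) to 28 (without the first sgAAVS1 library). It was 27 without the second sgAAVS1 library, and 5 and 3 without the first and second sg2-IRF2 libraries.

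Between the controls, sgAAVS1 against untransduced cells, 2 members rose and 1 fell (limma; 4.75% of all tested genes called, 2.97% higher and 1.79% lower), and the median was 0.02, against 0.03 over all genes. ZNF584 (58401504 to 58418327, plus strand) read 5.62 and 5.58 in the untransduced pair, 4.96 and 5.0 in the sgAAVS1 pair, 5.81 and 5.78 in the sg1-IRF2 pair and 5.49 and 5.50 in the sg2-IRF2 pair. The sgAAVS1 libraries were the low ones, and the guide libraries lay on either side of the untransduced ones. It fell by 0.62 ± 0.08 between the controls (limma, adjusted p = 1.7e-05). Its rise against sgAAVS1 (1.59-fold; limma, adjusted p = 1.1e-07) stood beside a difference of 0.05 ± 0.07 from untransduced cells (adjusted p = 0.84). With pairs averaged, which leaves 1 untransduced sample assumed to vary as the sgAAVS1 pair does, ZNF584 was the member called between the controls (limma, adjusted p = 0.0021).

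ZNF480 read 5.65 and 5.75 in the untransduced pair, 5.95 and 6.32 in the sgAAVS1 pair, 6.05 and 6.07 in the sg1-IRF2 pair and 5.67 and 5.54 in the sg2-IRF2 pair. It rose with sgAAVS1 (0.43 ± 0.09; limma, adjusted p = 0.0039), and its sg1-IRF2 libraries lay with those of sgAAVS1. ZNF583 read 2.41 and 2.40, 3.11 and 3.33, 2.66 and 2.97, and 2.15 and 2.57, from 26 to 59 reads a library, and also rose with sgAAVS1 (0.82 ± 0.22; limma, adjusted p = 0.032). ZNF547 (-0.44) and ZNF497 (0.43) had the next largest differences and were not called (limma, adjusted p = 0.41 and 0.30). Leaving out the first untransduced library lowered the count of members and the share of all tested genes called between the controls. Leaving out the first sgAAVS1 library raised both. The median member difference was -0.02 and 0.06 in these fits.

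PPP1R12C (55090913 to 55117559, minus strand), which holds the AAVS1 site, lies among these genes. It had 679 and 699 reads in the untransduced pair, 375 and 424 in the sgAAVS1 pair, 678 and 726 in the sg1-IRF2 pair and 672 and 671 in the sg2-IRF2 pair, and fell with sgAAVS1 by 0.67 ± 0.06 on the log2 scale (limma, adjusted p = 7.5e-08). The members within 1 Mb of its start are the 7 of subcluster 3 (ZNF628, ZNF579, ZNF524, ZNF865, ZNF784, ZNF580 and ZNF581) and ZNF787. Limma called none of the 7 between the controls (median 0.03; 1 at unadjusted p under 0.05, 0 with voom), nor ZNF787 (0.05 ± 0.06; adjusted p = 0.69). ZNF584, 3311 kb away, lay farther than these.

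**Figure D5:**
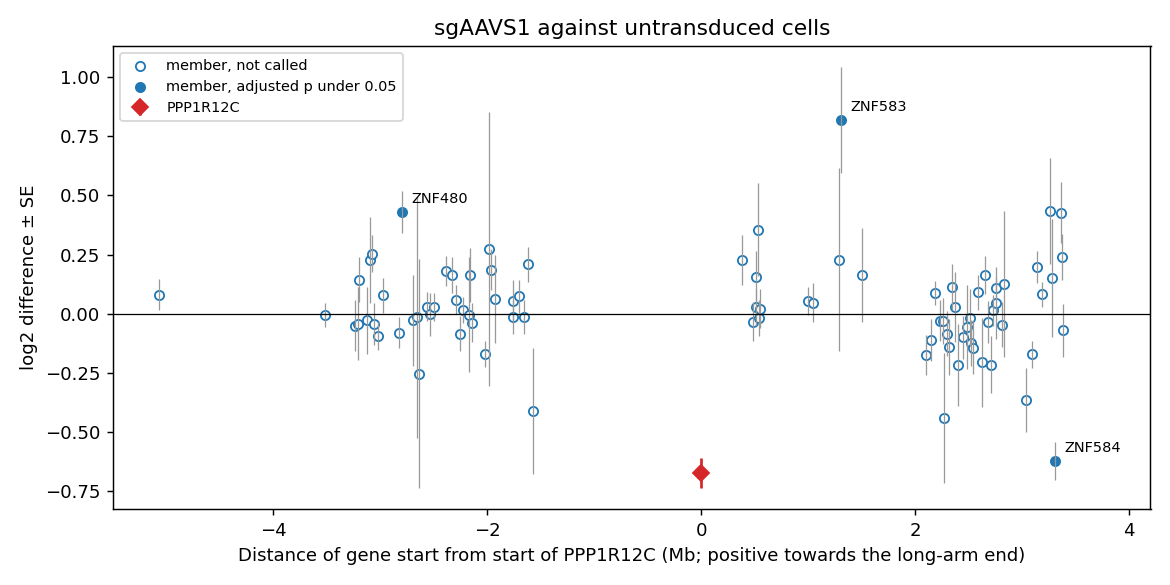
Log2 difference with its SE between sgAAVS1 and untransduced cells for each member, by the distance of its start from that of PPP1R12C in Mb; filled points have an adjusted p under 0.05 and the diamond is PPP1R12C itself. ZNF480 and ZNF583 are the filled points above 0 and ZNF584, near the end of the arm, is the filled point below 0.

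Several members with known roles were not called with both IRF2 guides as 1 group against either control. ZNF175 read 7.28 to 7.43 over the 8 libraries and differed by 0.04 ± 0.04 from either control (limma, adjusted p = 0.83 and 0.81). ZNF160 differed by 0.02 from sgAAVS1 and ZNF83 by -0.01. ZNF808, which is needed for development of the pancreas, differed by -0.10 and ZNF587 by -0.08, and none of these was called with both guides. ZNF444, which pairs its fingers with a SCAN domain, differed by -0.04, ZNF582 by -0.46 ± 0.33 at a low level, and ZNF71 by -0.20, also not called. With sg2-IRF2 alone against sgAAVS1, where 7.11% of all tested genes were called lower, ZNF808 (-0.19) and ZNF587 (-0.16) were called lower. ZNF611, ZNF765, ZNF528 and ZNF530 fell in that comparison too, by 0.31, 0.29, 0.76 and 0.54 on the log2 scale.

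Corepressor genes that KRAB proteins depend on were read from a list of 25, among them TRIM28, SETDB1, the HP1 genes CBX1, CBX3 and CBX5, and DNMT1. Limma called none with both IRF2 guides against sgAAVS1 (median -0.03; 4 at unadjusted p under 0.05, 0 with voom) or against untransduced cells (median 0.04; 5 at unadjusted p under 0.05, 0 with voom). TRIM28 differed from sgAAVS1 by -0.02 ± 0.05 (limma, adjusted p = 0.94). With sg2-IRF2 against sgAAVS1 4 of the 25 fell (4 with voom; 7.11% of all tested genes fell). In the direct comparison of the guides 11 were higher with sg1-IRF2 (2 with voom; 12.7% of all tested genes were higher), and 4 rose with sgAAVS1 against untransduced cells (4 with voom; 2.97% of all tested genes rose).

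Across members the difference from sgAAVS1 went with level (Spearman 0.44 with mean log2, n = 85 members of the same 8 libraries) and hardly with the number of finger patterns (-0.14, n = 84). Differences of consecutive members of a subcluster had a Pearson correlation of 0.25 against sgAAVS1, 0.45 against untransduced cells and 0.02 between the controls (80 pairs, which share their libraries and, in places, sequence). Shared sequence limits some values: 23 members had at least 10% of their 50-base words in another gene, most of all ZNF320, with 75.2% in common with its neighbour ZNF468. Of the 47 members under 5%, 10 fell and 1 rose against sgAAVS1 (median -0.27). By Pearson correlation with the mean profile of the members over the 8 libraries, the genes most alike outside them were RCN1 (0.989), ZNF562 (0.977), PIK3R3 (0.976), PTPN22 (0.973) and PRKD2 (0.972).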

How the data were processed

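The members and gene lists were chosen with earlier results of these data known. RNA from 8 K562 dCas9-KRAB libraries in 4 groups of 2 was depleted of ribosomal RNA and made into libraries with a directional kit, per the labels' protocols. Cutadapt, Bowtie2 and the build hg38 are named in the submitters' processing notes, while their versions, the counting tool, its strand setting and the annotation were not given in the sources used here. Each deposited value is a log2 of reads divided by 1 factor per library, with genes without reads at the value of 0.9 read. This was tested on the values: 100% came out as whole reads (tolerance 0.01 read).

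Genes with a mean log2 at or above 0 were tested on the deposited log2 values with limma 3.58.1 in R 4.3.3 (group means over all 8 libraries, eBayes with a mean-variance trend, 4 residual and 22.4 prior degrees of freedom, two-sided, Benjamini-Hochberg over 14665 genes, called at adjusted p under 0.05). Differences are fitted log2 differences ± SE, and a gene pulled to the floor of 0.9 read has its change understated. There were 6 comparisons, and the alternatives were another filter, pseudocount, scaling, trend, voom on the recovered reads, a smaller set of samples, a replicate block and leaving out each library. On data simulated for both IRF2 guides against sgAAVS1 over 14665 genes, 98 of 100 2-fold and 100 of 100 4-fold changes were recovered, and 23 of 221 calls (10.4%) were genes left unchanged. That share lies above the 0.05 that the adjustment aims at. Changes were placed only in genes with enough expected reads, and every library had the same dispersion. All member differences in that comparison were below 2-fold (-0.69 to 0.67 on the log2 scale), and recovery of such changes was not tested. Averaging the close library pairs was added after the data were seen.

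All 85 members matched GENCODE 29 by name and place, 71 with the same span. Finger and KRAB patterns were read from its coding sequences. Named members were every member among the 30 with the lowest adjusted p in any comparison, the highest and lowest of each subcluster per kilobase, the 5 largest differences against sgAAVS1 and between the controls, those within 1 Mb of PPP1R12C, and members with a known role. Others were named after their values were seen. Tables were joined in Python 3.11.15 (pandas 2.3.3, numpy 2.4.6) and plotted with matplotlib 3.10.9. The shared promoter word was found from the windows alone, with its length and mismatch limit set after the data were seen.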

Additional observations from a re-analysis of the deposited data

Results flagged for a closer look

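The effects of the 2 IRF2 guides against sgAAVS1 differed by the direct limma comparison of sg1-IRF2 with sg2-IRF2 in 16 members, each higher with sg1-IRF2. In that comparison 12.7% of all tested genes were called higher with sg1-IRF2 too, and their median was 0.11 higher over all tested genes. On the log2 scale the differences were 1.06 for ZNF418, 0.59 for ZNF347, 0.57 for ZNF528, 0.45 for ZNF480, 0.44 for ZNF530, 0.37 for ZNF813, 0.36 for ZNF614 and 0.33 for ZNF776. They were 0.32 for ZNF134, 0.30 for ZNF584, 0.28 for ZNF473 and for ZNF611, 0.24 for ZNF616, 0.22 for ZNF765, 0.19 for ZNF320 and 0.16 for ZNF587. With library medians aligned 1 member was called higher and 1 lower, and 1.58% of all tested genes were called. Groups of 2 libraries are too small for a search for single outlying libraries.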

How the results depend on the processing

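The numbers of members called were 20, 20, 7, 44, 16 and 3, in the order both IRF2 guides against sgAAVS1, both against untransduced, sg1-IRF2 against sgAAVS1, sg2-IRF2 against sgAAVS1, the 2 guides against each other, and the 2 controls against each other. In that order they were 5, 4, 2, 19, 6 and 1 with no filter on low values, 2, 0, 1, 2, 0 and 1 without a mean-variance trend, and 7, 3, 2, 11, 1 and 1 with the pairs within counting noise averaged, a fit with 1 residual degree of freedom, from the sgAAVS1 pair, that assumes the lone samples of the other groups vary as that pair does, so that its count for the 2 guides against each other sets 1 sample against 1. Aligning library medians gave 11 in the first, 17 in the fourth and 2 in the fifth. Quantile normalization gave 20 in the fourth, 2 in the fifth and 5 in the sixth, and voom 12 in the first, 20 in the fourth, 2 in the fifth and 5 in the sixth. Fitting only the groups compared gave 12 in the first, 4 in the third, 24 in the fourth and 27 in the fifth, and a filter at a mean log2 of 2 gave 5 in the sixth. Leaving out 1 library gave 8 to 26, 4 to 27, 1 to 9, 17 to 43, 1 to 28 and 1 to 7. The share of all tested genes called moved between these settings too, and when single libraries were left out, not always in the direction of the count. For the 2 guides against each other it was 0.0136% without a mean-variance trend and 27.5% with only the groups compared. The cause was not tested.

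The median member difference between sg1-IRF2 and sg2-IRF2 (0.16) was 0.050 with medians aligned, 0.051 with quantile normalization and 0.056 with voom. Between the controls the median (0.02) turned to -0.0079, -0.0033 and -0.0071 under the same 3 settings, and leaving out 1 library moved it from -0.018 to 0.061. Without 1 library the median against sgAAVS1 ran from -0.24 to -0.15. No called member turned its direction under any setting. With both guides against sgAAVS1, ZNF614 and ZNF584 were called under every alternative run, and ZNF304 and ZNF551 under all but that without a mean-variance trend.

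Replicate numbers did not pair the samples across all 4 groups: correlations of the deviations of same-numbered libraries ran from -0.079 to 0.216, and only that of sgAAVS1 with sg1-IRF2 passed 0.1. For these 2 groups same-numbered libraries were closer (mean chi-square per gene 1.11 and 1.22) than the others (1.54 and 1.70), as a hint from the data. With the replicate block 15, 19, 6, 42, 16 and 3 members were called. Few reads limit what could be called: the standard error was 0.50 for ZNF415 with both guides and 0.31 for ZNF418 with sg2-IRF2 against sgAAVS1.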

Other observations

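Some zinc finger genes of the same stretch are not named ZNF. ZIM3, a KRAB zinc finger gene of distal 19q whose KRAB domain is used in dCas9 repressors, had 137 and 147 reads in the untransduced pair, 132 and 145 in the sgAAVS1 pair, 139 in both sg1-IRF2 libraries and 141 and 143 in the sg2-IRF2 pair. PEG3, USP29 and DUXA, its neighbours, had 0 reads in all 8 libraries. Whether the reads of ZIM3 come from the gene or from the repressor construct was not tested. MZF1, at 259 to 387 reads a library, ZSCAN22, at 172 to 263, FIZ1, at 160 to 226, ZBTB45, at 124 to 200, ZSCAN5A, at 60 to 96, and ZIK1, at 3 to 17, complete a list of 7 tested genes with ZIM3. Limma called none of the 7 with both IRF2 guides against sgAAVS1 (1 at unadjusted p under 0.05, 0 with voom) or against untransduced cells (2 at unadjusted p under 0.05, 0 with voom).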
